A study of Mus musculus with 4 samples.

Results

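N6-methyladenosine (m6A) was mapped by m6A-seq in whole brain of mice aged 4 weeks, whose strain is labelled C57BL/6J and whose genotype is given as Prrc2a flox/flox, a floxed allele for which no Cre driver is named. There were 4 samples, all of this 1 genotype, 2 of RNA bound by an antibody against m6A (IP) and 2 of input RNA, and no group with another genotype or treatment was compared. A peak list was used for each IP replicate, in which every peak carries its fold enrichment, the linear ratio of IP over the input of the same replicate. The lists hold no read counts, so that the depth is unknown and no statement below rests on it. The intervals described here are the stretches shared by overlapping peaks of both lists (at least 1 bp), where the midpoint of the stretch lay within 200 nt of a stop codon, counted along the spliced mRNA. There were 4546 such stop-codon intervals, 23% of the 19747 shared intervals that could be placed on 1 mRNA and a part of the 23901 shared intervals in all. They lay in 4358 genes, of which 4178 had 1 interval, 172 had 2 and 8 had 3.

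In mammals, m6A is written onto mRNA in the nucleus by a methyltransferase complex built around Mettl3 and Mettl14, with partners such as Wtap, Rbm15 and Virma, and it is removed by Fto and Alkbh5. The complex acts on adenosines in a short consensus, of which GGACT, written as DNA, is a frequent form. The mark is known to gather around stop codons and in long exons, and it is read by proteins of the YTH family, which change the stability, translation or splicing of the mRNA. It is abundant in brain.

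The core motif could lie on the stop codon itself, because GGACT can borrow its last T from TGA, TAA or TAG. Wherever intervals are called the strongest here and below, the rank is that of the smaller of the replicates' values, so that a single replicate can hold higher values. The mRNA sequences of the 6 strongest such cases are shown because they place the methylatable adenosine next to the end of translation. Each is read 5′ to 3′ on the mRNA strand, the stop codon is bases 13 to 15, and the capitals mark GGACT.
Cdh4: ggcgaggaGGACTaaccaacctcacca
Slc35b4: gacaagaaGGACTgaggtctgcctggg
Ccn1: aagttcagGGACTaagtgcctccaggg
Pcyt1a: gatgaagaGGACTaacttttcatccct
Fam155a: acccgggaGGACTgagcgcagccaggc
Fiz1: aggggcatGGACTgaataaccaggaca
In genome build mm10 these are chr2:179895904-179895930 (plus strand) for Cdh4, chr6:34158368-34158394 (minus) for Slc35b4, chr3:145647654-145647680 (minus) for Ccn1, chr16:32471489-32471515 (plus) for Pcyt1a, chr8:9207731-9207757 (minus) for Fam155a and chr7:5008003-5008029 (minus) for Fiz1. Each lies in the last exon of its gene.

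To these are added the 4 of the 10 strongest stop-codon intervals whose GGACT lies nearest to the stop codon without overlapping it. The capitals again mark GGACT.
St8sia1: ccacttcctagGGACTgcagaagaaga
Bag4: tagaaaaaaagGGACTatgaaataact
Tmem178b: cgagcgtttggGGACTtcactgaaact
Sh3bp4: cactggagttgGGACTctgcccaccag
The adenosine lies 3 nt after the stop codon in St8sia1, where the motif directly follows the stop codon (chr6:142828768-142828794, minus strand), 4 nt before it in Bag4 (chr8:25767917-25767943, minus), 7 nt before it in Tmem178b (chr6:40254930-40254956, plus) and 36 nt after it in Sh3bp4 (chr1:89153374-89153400, plus). These 4 sites are in the last exon too, in the 3′ UTR of St8sia1 and Sh3bp4 and in the CDS of Bag4 and Tmem178b.

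To see how strong the stop-codon intervals were, their fold enrichment was taken from each list. In replicate 1 the values ran from 1.13 to 12.2, with a median of 3.29 and quartiles of 2.41 and 4.40. In replicate 2 they ran from 1.07 to 8.45, with a median of 2.51 and quartiles of 2.02 and 3.11. The placed intervals away from stop codons had medians of 2.96 and 2.26. On the log2 scale the stop-codon intervals averaged 1.70 ± 0.60 in replicate 1 and 1.33 ± 0.45 in replicate 2 (SD over 4546 intervals), and the other intervals 1.58 and 1.20. The difference was 0.13 in both replicates (mean 0.13 ± 0.0042, SD, n = 2), with an exact two-sided sign-flip p of 0.5, the smallest that 2 replicates can give. The difference was small against the SD over intervals, and the distributions overlapped widely.

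Both lists ranked the stop-codon intervals alike to a degree. Spearman's rho between the replicates was 0.641 over the 4546 intervals and 0.604 over the other placed intervals, a description over sites of a single pair of samples. An enrichment of 2 or more was reached in both lists by 3268 stop-codon intervals, 71.9% (95% Wilson interval 70.6 to 73.2), against 62.5% of all placed intervals. Wilson intervals here and below cover counting error only. Replicate 1 gave the higher value in 79.2% of the stop-codon intervals, close to the 78.5% of all placed intervals.

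**Figure D1:**
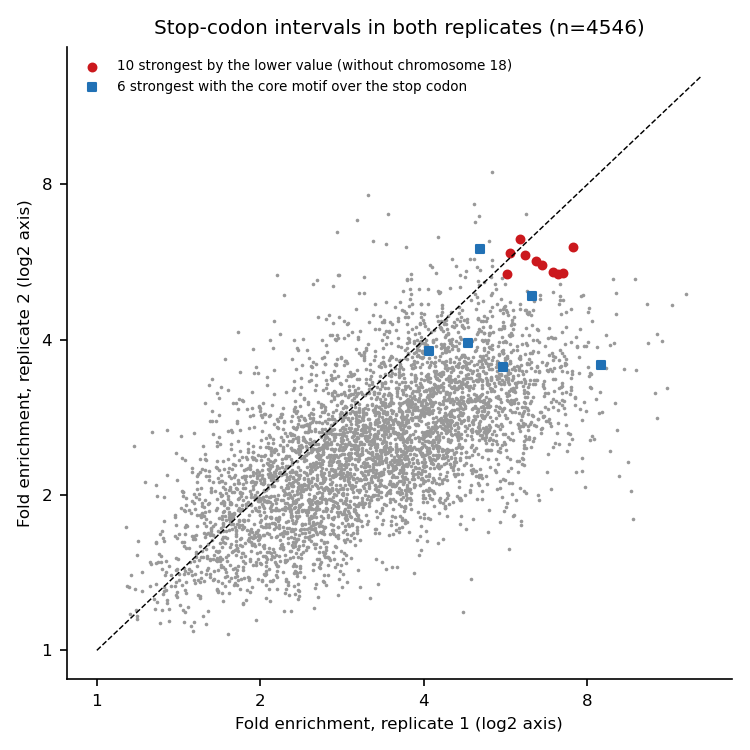
Fold enrichment of the 4546 stop-codon intervals in replicate 1 (horizontal) and replicate 2 (vertical), both on log2 axes, with 1 point per interval and the line of equality dashed. Red circles are the 10 genes with the largest lower value (chromosome 18 left out) and blue squares the 6 strongest with the core motif over the stop codon, and most points lie below the line, where replicate 1 is higher.

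Within a gene, the interval at the stop codon was more often above the average of the gene's other intervals. In 2586 genes with placed intervals both at and away from the stop codon, the mean log2 value of each kind was taken per gene. The median difference between these means in replicate 1 was 0.19, with quartiles of -0.23 and 0.69. Replicate 2 gave 0.16, with quartiles of -0.14 and 0.50. The stop-codon mean was higher in 60.4% of these genes in replicate 1 and in 62.0% in replicate 2. It was higher in both in 1176 genes (45.5%) and lower in both in 548 (21.2%). Among 2648 genes with a stop-codon interval and more than 1 interval in all, the strongest interval was at the stop codon in 51.2% in replicate 1 and 53.1% in replicate 2. Stop-codon intervals made up 34.6% of the intervals of these genes. This last share pools intervals, so that genes with many weigh more, and it is not the value expected per gene. Genes with all their intervals at the stop codon were counted too, and in them the strongest had to lie there. Some mRNAs had no other placed interval. Of 4032 genes with a single placed interval, 1710 had it at the stop codon. This share was below the 47.7% of all genes with a placed interval that had one there. It was above the 23% of all placed intervals that lay at stop codons.

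The strongest intervals, taken like the genes named below from all chromosomes except 18, were in genes of signalling and cell adhesion as well as of other functions. Def6, a guanine nucleotide exchange factor, had 7.52 in replicate 1 and 6.06 in replicate 2. Pdzrn4, a PDZ and RING domain protein, had 6.01 and 6.29. Csmd1, a large membrane protein that restrains complement, had 6.15 and 5.83. In these 3 genes the midpoint was 137 nt after, 192 nt before and 179 nt after the stop codon. St8sia1, the sialyltransferase that makes ganglioside GD3, had 5.76 and 5.88. Both Wnt5a (6.44 and 5.68) and Wnt5b (7.05 and 5.37), ligands of the non-canonical Wnt pathway, were among the 10 strongest, with midpoints 154 nt before and 119 nt after the stop codon. The others were Sh3bp4 (6.60 and 5.59), an adaptor in endocytosis, Lrrtm3 (6.92 and 5.40), a synaptic adhesion molecule, Bag4 (7.23 and 5.39), a co-chaperone of Hsp70, and Tmem178b (5.70 and 5.36). All 10 intervals covered the whole stop codon and lay in the last exon.

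The window is symmetric, so that the even spread of midpoints around the stop codon is a description of the selection. Midpoints fell before it in 2113 intervals (46.5%), inside it in 46 (1.01%) and after it in 2387 (52.5%), with a median of 8 nt after. With a window of 400 nt the share after it was 48.0%. The 50 nt just after the stop codon held 734 midpoints and the 50 nt just before it 653, while the bins 151 to 200 nt away held 465 before and 449 after. The interval covered the whole stop codon in 3733 cases (82.1%). Its median length was 346 nt, against 337 nt for the other placed intervals. Fold enrichment was nearly level over the window, and the 180 intervals just inside its edge (191 to 200 nt) had medians of 3.38 and 2.44, against 3.21 and 2.49 for the 174 just outside (201 to 210 nt). Intervals 201 to 400 nt after the stop codon were as strong, with medians of 3.39 and 2.61, and those over 2000 nt after it were at 2.76 and 2.31.

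The last exon was the common setting of these intervals. The midpoint lay in the last exon in 4174 of 4546 (91.8%), counting mRNAs of a single exon. The 372 intervals centred in an earlier exon had lower median enrichments, 2.36 in replicate 1 and 1.83 in replicate 2, against 3.38 and 2.57 in the last exon. Peaks were called on the genome and can run into introns, and a median of 43.3% of the bases of these 372 lay in exons of the mRNA, against 100% for those in the last exon. Whether intron sequence contributed to the lower values was not tested.

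The amount of coding sequence (CDS) in the last exon was counted as the nucleotides from the start of that exon to the stop codon. Where the start codon also lies in the last exon, this length includes 5′ UTR. The length so counted went with both the frequency and the strength of stop-codon intervals. Over all genes with a placed interval, 47.7% had one at the stop codon (4358 of 9128, Wilson interval 46.7 to 48.8). With at most 100 nt of CDS in the last exon the share was 37.1% (741 of 1997, 35.0 to 39.2), with 101 to 200 nt 50.1% (1406 of 2806), and with 201 to 400 nt 66.3% (1080 of 1629, 64.0 to 68.6). It fell again to 51.2% at 401 to 1000 nt (610 of 1191) and to 30.8% above 1000 nt (265 of 860, 27.8 to 34.0). When all peaks of 1 replicate were used, the share at 201 to 400 nt was 66.8% in replicate 1 and 66.4% in replicate 2, the largest of the 5 classes in both, and the class above 1000 nt was the lowest in both. The classes of 101 to 200 nt and 401 to 1000 nt changed places, with 51.9% and 48.9% in replicate 1. The difference between this class and the shortest was thus larger than the spread between replicates (SD of 0.250 percentage points at 201 to 400 nt and 1.37 at up to 100 nt), although 2 replicates allow no exact p below 0.5.

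Strength rose over the same classes up to 401 to 1000 nt in replicate 1 and through the last class in replicate 2. Median fold enrichments were 2.59 in replicate 1 and 2.17 in replicate 2 at up to 100 nt, 2.98 and 2.43 at 101 to 200 nt, and 3.60 and 2.64 at 201 to 400 nt. They were 4.40 and 2.86 at 401 to 1000 nt and 4.12 and 3.05 above 1000 nt. In the same order of classes, the median length of the intervals was 316, 323, 364, 533 and 426 nt. GGACT was found in 36.7, 45.1, 52.1, 55.7 and 47.7% of them. The part of interval length or motif in these differences was not tested. Spearman's rho between fold enrichment and the length of CDS in the last exon was 0.396 in replicate 1 and 0.309 in replicate 2 over 4268 intervals of genes with several exons and the stop codon in the last one. It is a description across sites, and the length of CDS in the last exon is tied to the distance from an exon junction. Intervals with a midpoint at most 50 nt from the nearest junction had medians of 2.40 and 1.86 (n = 380), and those more than 400 nt away 4.28 and 2.90 (n = 820).

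**Figure D2:**
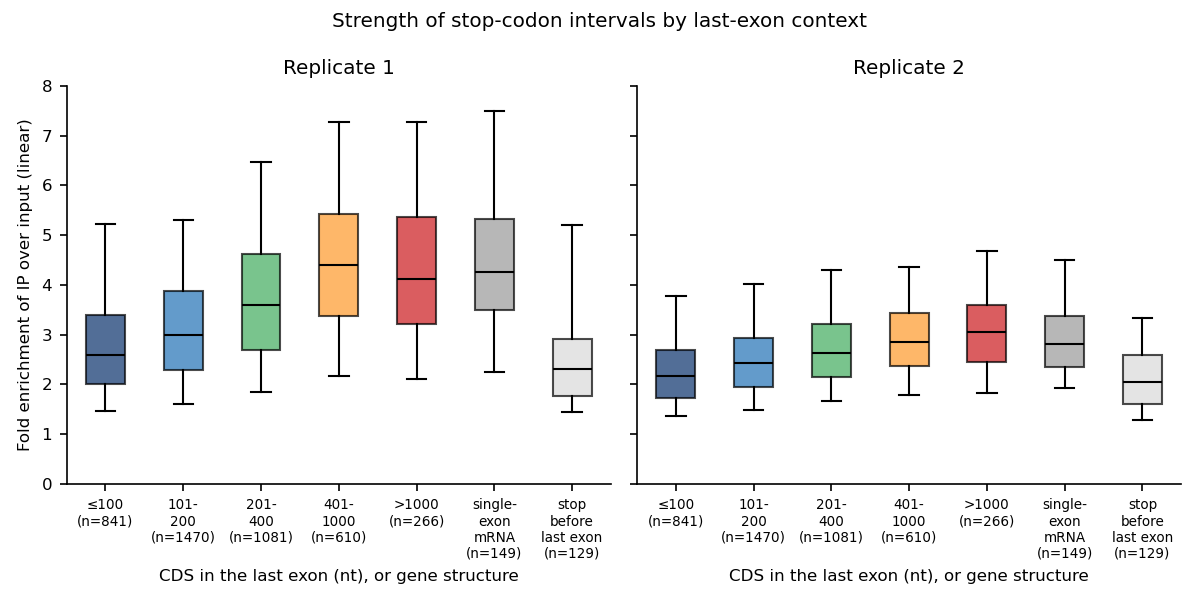
Fold enrichment (linear) of stop-codon intervals in replicate 1 (left) and replicate 2 (right) by the nucleotides of CDS in the last exon, for single-exon mRNAs and for genes whose stop codon lies before the last exon. CDS in the last exon is counted from the start of that exon to the stop codon and includes any 5′ UTR there. Boxes are quartiles with the median, whiskers the 5th and 95th percentiles, and n the intervals; in replicate 1 the median goes from 2.59 at up to 100 nt to 4.40 at 401 to 1000 nt.

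The position of the intervals differed between the classes as well, without a steady trend. The share of stop-codon intervals centred after the stop codon was 62.1% at up to 100 nt of CDS in the last exon, 67.4% at 101 to 200 nt, 44.9% at 201 to 400 nt, 27.0% at 401 to 1000 nt and 35.0% above 1000 nt. Coverage of every base by any shared interval was then profiled over the genes with a placed interval, which needs no window. Seen from the stop codon, coverage was highest 100 nt after it in the class with up to 100 nt of CDS (45.1% of genes), 50 nt after it at 101 to 200 nt (56.7%), 25 nt before it at 201 to 400 nt (68.0%), 100 nt before it at 401 to 1000 nt (77.9%) and 150 nt before it above 1000 nt (67.7%). Seen from the start of the last exon, the highest point was 175 nt into the exon in the first 2 classes, 250 nt at 201 to 400 nt (67.8%), 375 nt at 401 to 1000 nt (77.1%) and 275 nt above 1000 nt (61.3%). The highest point was thus at no fixed distance from either landmark over the 5 classes.

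In genes with more than 1000 nt of CDS in the last exon, coverage ran along the CDS of this exon beyond its first part. It was 19.0% at the start of the exon and 59.9% at 200 nt into it. It was 55.2% at 1000 nt before the stop codon, 61.2% at 500 nt before, 66.6% at 200 nt before and 60.2% at the stop codon, and it dropped to 32.8% at 200 nt after. Only 15.9% of the last-exon intervals of this class (266 of 1674) were centred within 200 nt of the stop codon, against 65.0% (1081 of 1663) at 201 to 400 nt. The low share of genes with a stop-codon interval in this class therefore stood beside frequent coverage of the stop codon by intervals centred elsewhere. Upstream of the last exon, coverage 200 nt before its start was 12.3 to 15.8% in all 5 classes.

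**Figure D3:**
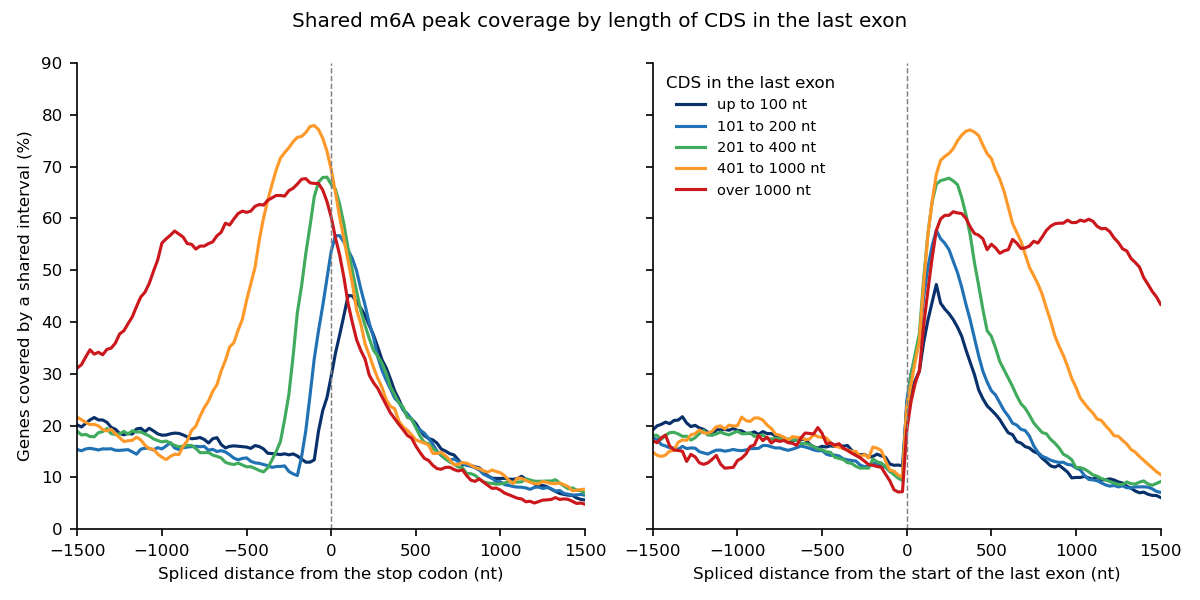
Percentage of genes with a placed interval in which a shared interval covers each position, by spliced distance (nt) from the stop codon (left) and from the start of the last exon (right), for 5 classes of CDS length in the last exon. This length is counted from the start of the last exon to the stop codon and includes any 5′ UTR there. Curves climb within the first 175 to 375 nt of the last exon in all classes, and relative to the stop codon their highest points go from 100 nt after it to 150 nt before it.

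Single-exon mRNAs and mRNAs with an intron after the stop codon were taken separately. Single-exon genes had a stop-codon interval in 149 of 294 cases (50.7%, 45.0 to 56.3), a share that was 48.5% with all replicate 1 peaks and 40.8% with all replicate 2 peaks, and their 149 intervals had medians of 4.25 and 2.81. These intervals had a median length of 509 nt, and GGACT was found in 60.4% of them. Among the strongest were Lpar6 (5.32 in replicate 1 and 5.29 in replicate 2), a receptor for lysophosphatidic acid, the small heat shock protein Hspb3 (5.17 and 5.18) and Adra2c (5.32 and 4.88), an adrenergic receptor. Where the stop codon lay before the last exon, 107 of 351 genes had one (30.5%, 25.9 to 35.5), and the 129 intervals had medians of 2.31 and 2.04. In 120 of these 129 the last junction followed within 55 nt of the stop codon. The strongest of them were in Foxo3 (5.84 and 4.20), a forkhead transcription factor, Usp27x (5.21 and 3.74), a deubiquitinase, and Tcaf1 (3.96 and 3.59), a regulator of a TRP channel. In Foxo3 and Tcaf1 the interval was centred in the last exon, 144 nt and 162 nt after the stop codon, and did not cover the stop codon.

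As many as 3 intervals within 200 nt of a stop codon were found in 8 genes, of which 3 are described. In Ccdc25, a coiled-coil membrane protein, they lay in exons 7, 8 and 9 of 9, with 5.06, 3.13 and 2.59 in replicate 1 and 3.35, 2.44 and 2.76 in replicate 2. Nap1l4, a histone chaperone, had them in exons 13, 14 and 15 of 15 (2.70, 3.05 and 2.29 in replicate 1 and 1.76, 1.63 and 2.44 in replicate 2). Fam133b had them in exons 9, 10 and 11 of 11, with 2.76, 3.52 and 4.05 in replicate 1 and 2.05, 2.27 and 2.55 in replicate 2. In all 3 genes the last exon held less than 100 nt of CDS, so that the window took in the short exons before it.

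The length of the 3′ UTR and the kind of stop codon went with smaller differences. The share of genes with a stop-codon interval was 40.6% with a 3′ UTR of at most 200 nt and between 47.4% and 54.0% in the longer classes. Median fold enrichment went from 2.74 and 2.25 at up to 200 nt to 3.65 and 2.76 above 3200 nt. Genes ending in TGA had a stop-codon interval in 48.8%, those ending in TAG in 48.8% and those ending in TAA in 44.5%, a lower value that was also seen in each list (45.4% in replicate 1 and 45.1% in replicate 2, against 49.9% and 49.3% for TGA).

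The consensus was then counted on the mRNA strand of each interval. GGACT was found in 2135 stop-codon intervals (47.0%, 45.5 to 48.4), in 37.1% of the other placed intervals (36.3 to 37.9) and in 39.4% of all placed intervals. The other intervals were not alike in this. GGACT was found in 58.2% of those 201 to 400 nt after the stop codon and in 51.4% of those 401 to 600 nt after it, more often than at the stop codon, and in 34.2% of those 201 to 400 nt before it. Intervals 201 to 400 nt after the stop codon were also longer, with a median of 449 nt against 346 nt at the stop codon. The 4-base core GGAC, which lies within GGACT, was found in 83.0% of the stop-codon intervals and 74.8% of the other placed intervals. In replicate 1 stop-codon intervals had a median of 3.68 with GGACT and 2.92 without it, and in replicate 2 these were 2.69 and 2.35. The stop-codon intervals were not richer in G and C than the others, with a median GC content of 52.8% against 54.4%.

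More copies of the motif went with more frequent and stronger intervals. Among genes with a placed interval, a stop-codon interval was present in 42.7% of those with no GGACT in the window (41.3 to 44.0), 52.3% of those with 1, 59.4% of those with 2 and 72.6% of those with 3 or more (65.9 to 78.5). Median fold enrichment rose from 3.11 and 2.44 without GGACT to 3.93 and 2.77 with 3 or more. Along the mRNA, genes with a stop-codon interval had 2.23 GGACT per kb in the 50 nt from the stop codon on and 1.95 in the 50 nt before it, and genes with placed intervals elsewhere only had 1.12 and 1.25. In the bin that starts 1000 nt before the stop codon the values were 1.19 and 1.13.

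**Figure D4:**
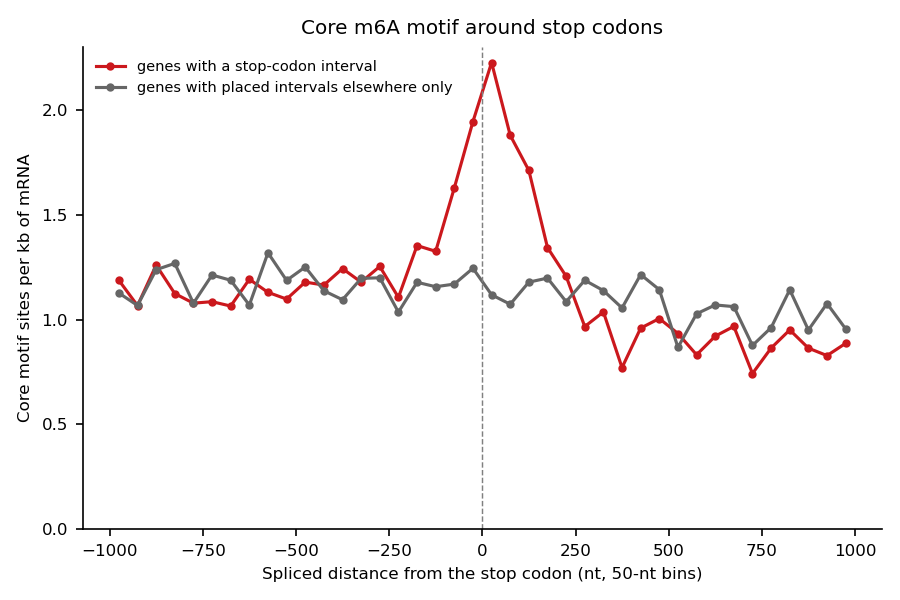
Sites of the 5-base core motif per kb of spliced mRNA in 50-nt bins by distance from the stop codon (nt), for 4358 genes with a stop-codon interval (red) and 4770 genes with placed intervals elsewhere only (grey). The red line peaks at 2.23 in the bin from the stop codon on, and the grey line is at 1.12 there.

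The motif on the stop codon itself, printed above for 6 genes, was rare. It was present in 240 of 21572 mRNAs (1.11%), and in 220 of them the adenosine was 2 nt before the first base of the stop codon. Of 136 such genes with a placed interval, 86 had a stop-codon interval (63.2%, 54.9 to 70.9), against 47.5% of the genes without it (46.5 to 48.5). With all peaks of each list the shares were 66.0% against 48.1% in replicate 1 and 58.7% against 48.1% in replicate 2, a mean difference of 14.3 ± 5.17 percentage points (SD, n = 2; exact two-sided sign-flip p = 0.5, the smallest possible). The 89 intervals of these genes had medians of 3.64 and 2.65. Cdh4, which encodes R-cadherin, had 5.09 and 6.00, the nucleotide sugar transporter gene Slc35b4 had 6.33 and 4.87, and Ccn1, a secreted matrix protein, had 4.82 and 3.94. Pcyt1a, an enzyme of phosphatidylcholine synthesis, had 4.08 and 3.80, Fam155a, a partner of the sodium leak channel, 8.46 and 3.58, and Fiz1, a zinc finger protein, 5.60 and 3.54. Of these 6 genes, Fam155a had the widest gap between the replicates, and Cdh4 alone was higher in replicate 2.

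Turning to the genes that carry the intervals, genes of the m6A pathway were near the background in number. Of 11 writers and erasers with a placed interval 5 had a stop-codon interval, and of 9 readers 4, beside 47.7% of all genes. Rbm15 (5.91 and 3.24) and its relative Rbm15b (5.88 and 3.04), which bring the writer complex to its targets, had the strongest of the first list. Rbm15b is a single-exon mRNA whose interval covered the stop codon, and in Rbm15 the interval was 199 nt upstream in exon 1 of 2 and did not reach it. Among readers, Ythdc1, the nuclear YTH protein, had 5.96 and 3.01 and Ythdf3, a cytoplasmic one, 2.64 and 3.92. Ythdf2 had 2.21 and 2.04 at the stop codon, below its interval in CDS of exon 4 (4.45 and 3.24).

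Of 9 genes taken from the text of the study, which names others too, Ythdf2 and Cspg4 had a stop-codon interval and the other 7 did not. Cspg4, the NG2 antigen of oligodendrocyte precursors, had 3.97 and 2.38 there, with the midpoint 126 nt after the stop codon. In Olig2, a transcription factor of the oligodendrocyte lineage, the interval that spans the stop codon (7.28 and 2.76) had its midpoint 227 nt after it. In Pdgfra, the growth factor receptor of precursors, the interval that spans the stop codon (6.28 and 3.81) was centred 258 nt after it. Both intervals covered the stop codon, and only their midpoints lay just outside the window. The intervals of Prrc2a nearest to the stop codon were in exon 16 of 31.

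Lineage transcription factors and myelin genes were near the background in number. Precursor surface and signalling genes were below it, though their wide Wilson interval included it. Of 12 transcription factors of the lineage 6 had a stop-codon interval, with medians of 4.32 and 2.38, among them Sox8 (4.68 and 4.02) and Sox6 (4.47 and 3.62). Of 14 myelin genes 7 had one, with medians of 1.98 and 2.01, below the 3.29 and 2.51 of all stop-codon intervals. One of them was in Mal, a proteolipid of myelin (2.41 and 2.33). Of 10 genes of precursor surface and signalling proteins, Fgfr2 (3.10 and 3.79) and Cspg4 had one.

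Of the lists of channels, receptors and synaptic proteins, 2 lay above the background and the others near it. GABA-A receptor subunits, which form the main inhibitory receptor of the brain, had a stop-codon interval in 8 of 10 genes with a placed interval (Wilson interval 49.0 to 94.3%), with medians of 3.33 and 2.76. Gabra5 had 3.64 and 3.19. With all peaks of 1 list the share was lower, 64.3% in replicate 1 and 72.7% in replicate 2. Postsynaptic scaffolds had one in 11 of 14 (52.4 to 92.4%), led by Shank2 (7.75 and 4.20) and Dlg3, which encodes SAP102 (5.24 and 3.68). In either list alone it was 66.7%. Ionotropic glutamate receptors had 9 of 17, among them Gria4 (6.00 and 3.68), an AMPA receptor subunit, and Grin3a (3.47 and 3.58), an NMDA receptor subunit. Potassium channels had 29 of 63, with Kcnj2 (5.05 and 5.12) and Kcnu1 (4.01 and 4.49) first by the lower value, and genes of synaptic vesicles and SNARE proteins 12 of 26, with Sv2b (4.40 and 2.86) and Syn3 (3.72 and 2.66).

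Axon guidance genes had 23 of 62 (37.1%, Wilson interval 26.2 to 49.5%), beside 47.7% of all genes. Epha6 (4.49 and 4.53) and Sema3d (4.65 and 3.61) were first by the lower value, and the medians of the list were 4.63 and 2.85. Histone modifiers had 20 of 55 (36.4%, 24.9 to 49.6), with the histone H3 methyltransferases Nsd2 (5.03 and 5.21) and Nsd1 (6.16 and 4.22) first. Kinesin motors had 8 of 23 (34.8%, 18.8 to 55.1), among them Kif13b (3.56 and 4.18) and Kif26b (4.67 and 3.27). The Wilson intervals of these 3 lists included the 47.7%. Zinc finger genes had 117 of 283 (41.3%, 35.8 to 47.2), with high medians of 3.93 and 2.88 and values of 5.35 and 5.56 in Zfp317 and 5.40 and 5.14 in Zfp78. Immediate early genes, which neuronal activity induces, had 14 of 20 (70.0%, 48.1 to 85.5), against 47.7% of all genes, with medians of 4.32 and 2.99. GGACT was in 71.4% of their intervals, against 47.0% of all stop-codon intervals. Their intervals were also longer, with a median of 615.5 nt against 346 nt, and the part of length in this share was not tested. Nr4a3 had 3.75 in both replicates, and the single-exon gene Jun had 7.50 and 3.48. The share of immediate early genes was 75% with all replicate 1 peaks and 55% with all replicate 2 peaks.

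Low medians were found in 2 groups of housekeeping genes with short mRNAs, which with the myelin genes had the lowest 3 of the 17 lists in replicate 1 and were the lowest 2 in replicate 2. Of 83 cytosolic ribosomal protein genes only 15 had any placed interval, against 9128 of all 21572 genes. Of these 15 genes, 13 had one at the stop codon, beside 47.7% of all genes. With all peaks of 1 list it was 20 of 28 in replicate 1 and 17 of 19 in replicate 2. Of the stop-codon intervals of ribosomal protein genes, 56.25% were centred in the last exon, against 91.8% of all. Their medians were 2.04 in replicate 1 and 1.71 in replicate 2. Rpl4 (2.81 and 2.30) and Rpl5 (2.12 and 2.09) were the strongest. Nuclear genes of oxidative phosphorylation had 13 of 30, with medians of 1.81 and 1.60, led by Ndufaf4 (2.57 and 2.85) and Atp5k (2.30 and 2.94). The window around the stop codon took up a median of 29.5% of the mRNA in the ribosomal protein genes and 33.9% in those of oxidative phosphorylation, against 11.5% over all genes, and the part of this in the shares was not tested. Uniquely mapped reads alone were kept, so that genes with near-identical copies, such as ribosomal protein genes with processed pseudogenes and clustered zinc finger genes, have uncertain values.

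**Figure D5:**
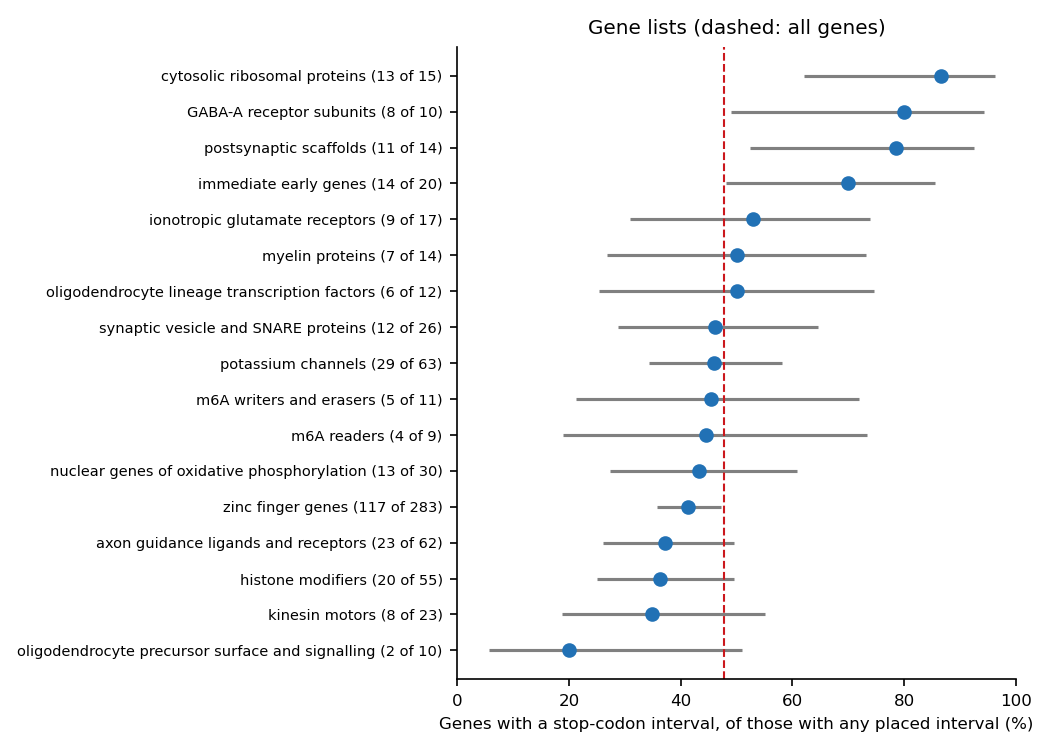
Percentage of genes with a stop-codon interval among the genes of each list with any placed interval (points) with 95% Wilson intervals (lines), and both counts in brackets. The dashed line is the 47.7% of all genes; ribosomal proteins, GABA-A receptor subunits and postsynaptic scaffolds lie highest.

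The tissue label was checked on defining markers. Of the markers of neurons 5 of 6 had a placed interval, of astrocytes 4 of 4, of oligodendrocytes 5 of 5, of their precursors 2 of 2 and of microglia 4 of 4, while none of 6 markers of tissues other than brain had one. Of all 21572 genes with an annotated stop codon, 9128 had a placed interval, and 47.7% of these had one at the stop codon. At the stop codon the marker intervals were found in 2 neuronal, 2 astrocyte, 1 oligodendrocyte, 1 precursor and 3 microglial genes. The astrocyte gene Gfap had 1.64 and 1.67 there, and the microglial gene Cx3cr1 3.99 and 3.06. A peak list does not give the abundance of an mRNA, and in whole brain the cell types that contributed to a peak cannot be told apart.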

How the data were processed

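Per the labels and the study's methods, mRNA of whole brain was fragmented and precipitated with an anti-m6A antibody. The authors aligned reads to mm10 with TopHat2 (2.0.9 in the submitters' processing notes), kept uniquely mapped reads and called peaks with MACS2 for each replicate against its own input, without pooling and with duplicates kept. The deposited values are a fold enrichment (linear ratio) per peak, in lists of 38533 and 30134 peaks. Duplicates can raise the value of peaks with few molecules, and depth is not given in the lists.

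The common bases of both lists were placed by their midpoint on the spliced representative mRNA (longest CDS) of 21572 genes with an annotated stop codon in GENCODE M21. Midpoints in exons of several genes were left out. Of the 4358 genes, 934 have a further annotated stop codon. GGACT and GGAC were searched on the mRNA strand of the spliced interval. Sequences were read from the GRCm38 genome, patch 6, the same chromosome sequences as mm10. Wilson intervals came from statsmodels 0.14.6, and placement was tested on simulated data. No test across genes was run. Named genes were the 10 strongest by the lower value, 9 genes chosen from the text of the study, 2 genes per list, the 6 strongest with GGACT on the stop codon, 3 strongest each of single-exon genes and of genes with the stop codon before the last exon, and 3 genes with 3 intervals. Genes on chromosome 18 were left out of all but the genes of the study and those with most intervals. Members, gene lists and rules were chosen with earlier results of these data known. Some of the genes named by these rules are not reported here.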

Additional observations from a re-analysis of the deposited data

Results flagged for a closer look

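Peaks at stop codons that were found in a single replicate enter none of the comparisons above. Replicate 1 had 1244 such peaks without a counterpart in replicate 2, which is 22.1% of its 5617 stop-codon peaks, with a median fold enrichment of 2.36 and GGACT in 31.9%. Replicate 2 had 745 without a counterpart in replicate 1, 14.5% of its 5129, with a median of 1.86 and GGACT in 27.0%. In 1077 and 614 genes these were found where no shared stop-codon interval was. Over the whole lists, 38533 and 30134 peaks gave 23901 shared intervals, so that at most this many peaks of either list had a counterpart. Peaks without one were thus not particular to stop codons, where a smaller share of peaks lacked a counterpart than over the whole lists. A further 109 shared intervals lay within 200 nt of a stop codon in exons of several genes and were left out because they could not be assigned to 1 mRNA.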

How the results depend on the processing

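Of 70 alternative values of the main results, 43 stayed within 1.5 times (counts), within the Wilson interval (shares) or on the same side of the test (the log2 difference), 27 moved, and the log2 difference kept its sign. The share centred after the stop codon did not stay a majority in all of them. A window of 100 nt gave 2585 intervals in 2568 genes, 13.1% of the placed intervals, with the stop codon in the last exon in 97.8% and the midpoint there in 96.4%. A window of 400 nt gave 7039 intervals (35.6%), with 96.3%, 82.6% and 48.0% centred after the stop codon. With any base of the interval in the window there were 6939 (35.1%). With an overlap of at least 50% of both peaks the share of placed intervals was 24.1%. Among peaks enriched 2-fold or more in both lists it was 26.5%, with 98.3% and 96.1% in the last exon as above, 55.4% after the stop codon and 53.2% with GGACT. Within 101 nt around the midpoint that motif was found in 20.2%, against 14.6% of the other placed intervals, and GGAC in the interval in 83.0%. With all peaks of 1 replicate, that is leaving out the other, stop-codon peaks numbered 5129 to 5617 in 4817 to 5268 genes, 20.6 to 20.7% of the placed peaks, 96.8% with the stop codon in the last exon, 88.7 to 89.1% with the midpoint in it, 49.4 to 50.4% centred after the stop codon and 45.3 to 45.7% with GGACT, and the log2 difference was 0.15 to 0.16. Of the 60 named genes, 27 kept a stop-codon interval at 100 nt, 57 with 50% overlap (not Nsd1, Syn3 and Zfp78) and 57 with the longest transcript (not Nsd2, Syn3 and Tmem178b). With a replicate left out the midpoint is that of the whole peak, and it left the window in Cspg4, Epha6, Hspb3, Jun, Nsd1, Rbm15, Sv2b, Wnt5a and Zfp78 without replicate 1 (51 kept) and in Csmd1, Pdzrn4 and Wnt5b without replicate 2 (57 kept). All 60 kept one at 400 nt, among peaks enriched 2-fold or more and with peaks merged.

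No paired analysis was possible because the results come from no test between groups, and no values of the input samples were used here. The depth is unknown, and 2 replicates of 1 genotype limit every value.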
